A study of Mus musculus with 2 samples.

Results

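The genes described here are 34 members of the insulin, AMPK and mTOR signalling cascade, out of 55416 annotated features that were counted in nuclei of whole fetal mouse brain. They were chosen by symbol from a fixed list that runs from the receptors for insulin and insulin-like growth factors to the kinases and transcription factors below them. Each member matched 1 feature. Their levels were summed over the nuclei of each library, and over nuclei sorted into classes by marker genes.

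The study compared 2 genotypes of fetal whole brain, wildtype and Cav1 knockout (KO), with 1 single-nucleus RNA library for each. Its title concerns the part that caveolin 1, the membrane protein encoded by Cav1 that shapes the small plasma membrane pits called caveolae, plays in metabolic programming of this tissue. The strain, the embryonic day, the sex, the kind of Cav1 allele and the number of fetuses behind each library are not given in the sources used here. With 1 library per genotype no difference between genotypes has a replicate check, no test between them was run, and all intervals below are 95% intervals that cover counting error only.

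Insulin and insulin-like growth factors act through the receptors encoded by Insr and Igf1r, which are tyrosine kinases. Their adaptors, the insulin receptor substrates, recruit phosphoinositide 3-kinase (PI3K), whose lipid product activates the kinases PDK1 and AKT. AKT restrains the FoxO transcription factors, glycogen synthase kinase 3 and the TSC complex, and so releases the small GTPase Rheb and the growth kinase mTOR. AMPK is the cell's sensor of low energy, is switched on by the kinase LKB1 and opposes mTOR. In developing brain the cascade is known for its roles in progenitor growth, neuron size and the specification of axons.

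The wildtype-labelled library gave 6686 nuclei and 17205381 UMIs, and the knockout-labelled library 6680 nuclei and 19878903 UMIs, from barcodes with at least 500 detected genes and at most 5% mitochondrially encoded UMIs. A UMI is a molecular tag, so that PCR copies of an RNA are counted once. Median depth was 2133.5 and 2366 UMIs per nucleus, and 43 barcodes occurred in both libraries, of which 10 passed the filter in both. The targeted gene was examined first. Over all nuclei Cav1 had 71 wildtype-labelled and 80 knockout-labelled UMIs, or 4.13 (3.22 to 5.21) and 4.02 (3.19 to 5.01) CPM, the usual unit in which every sum of UMIs is scaled to the same total. In endothelial-like nuclei, a cell type known for caveolin 1, it had 16 UMIs against 1, a ratio of 20.6-fold with an interval of 3.20 to 865. Total Cav1 therefore did not separate the libraries as their labels say, while the endothelial-like count did, and the libraries are called wildtype-labelled and knockout-labelled throughout. The counts do not tell whether the Cav1 UMIs come from whole or cut transcripts.

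Nuclei were placed in a class when they held at least 2 different markers of it and more than of any other class. This placed 4044 wildtype-labelled and 4046 knockout-labelled nuclei, while 1609 and 1643 held too few markers and 1033 and 991 were tied between classes. Each gate was then checked against further markers that it had not used. The gate meant for radial glia did not pass that check: its 6 values for Vim, Sox9 and Nes were only 1.11 to 1.95-fold those of other nuclei. Its marker Fabp7 had a UMI in 67.0% and 73.0% of all kept nuclei, so it is called the Fabp7 gate and no cell type is claimed for it. The gate of cortical excitatory neuron markers had 3 of 6 such values at 2-fold or more and is called the Neurod6 gate. The other classes had at least 4 such values and are named with the suffix "like". That requirement of a majority was set after the values were seen. In the wildtype-labelled other inhibitory class, Slc6a5 and Pax2 had 0 UMIs, so that only Gad1 was raised there. In the choroid plexus class Prlr had 0 UMIs in both libraries. The 5 main classes held at least 200 nuclei in each library and the 7 small classes 20 or more.

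At the top of the cascade, Igf1r was counted more often than Insr. In the order wildtype-labelled and knockout-labelled, which all pairs of values below follow, Igf1r had 476 (466 to 487) and 460.0 (451 to 469.6) CPM, and Insr had 141 (135 to 147) and 132 (127 to 138). Per kilobase of gene, a scale that corrects for length only as far as reads fall along the gene body, this was 1.69 and 1.63 CPM per kb for Igf1r against 0.895 and 0.840 for Insr. The 2 receptor genes thus kept the same order in both libraries and on both scales. Of the adaptors, Irs1 had 43.8 and 42.3 CPM and Irs2 21.0 and 19.8 CPM, but per kilobase their order turned, at 0.748 and 0.723 against 0.848 and 0.799 CPM per kb.

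Among the PI3K genes, the catalytic subunit genes Pik3ca (88.5 and 89.2 CPM) and Pik3cb (45.5 and 41.5 CPM) were both well counted. The regulatory subunit genes were Pik3r1 at 70.0 and 77.3 CPM, Pik3r3 at 23.6 and 22.8 and Pik3r2 at 19.4 and 17.5. Pik3r2, a gene of only 8.64 kb, was however the densest of these 5 per kilobase, at 2.25 and 2.02 CPM per kb. Further down, Pdpk1, which encodes PDK1, had 78.9 and 80.2 CPM, and Akt1 exceeded Akt2, with 61.4 and 58.8 against 27.7 and 26.0 CPM. Per kilobase Akt1 was also higher, at 2.42 and 2.31 against 0.496 and 0.464 CPM per kb.

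The brake on mTOR was represented by Tsc1 (91.8 and 90.6 CPM) and Tsc2 (27.1 and 24.9 CPM), and its activator by Rheb (92.6 and 93.9 CPM). Mtor itself had 88.2 (83.8 to 92.7) and 76.4 (72.6 to 80.3) CPM. Rptor, the defining subunit of mTOR complex 1, had 156 and 148 CPM, Rictor, that of complex 2, had 99.3 and 98.2, and Mlst8, a subunit of both, had 12.7 and 12.1. Deptor, an inhibitor of both complexes, had 7.27 and 6.84 CPM and was the lowest tested member per kilobase, at 0.0494 and 0.0466 CPM per kb. The mTOR complex 1 substrates were unequal. Rps6kb1, the S6 kinase gene, had 104 and 101 CPM and Eif4ebp2, a translation repressor gene, 53.9 and 55.2. Its paralog Eif4ebp1 had only 40 and 39 UMIs, or 2.32 (1.66 to 3.17) and 1.96 (1.39 to 2.68) CPM, and was the one member under the minimum of 100 UMIs for a comparison of the libraries.

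Of the AKT targets, Gsk3b was the second most counted member at 414 and 419 CPM, against 28.1 and 32.5 for Gsk3a. Per kilobase the paralogs were closer and their order turned, with 2.64 and 2.67 CPM per kb for Gsk3b and 2.85 and 3.29 for Gsk3a. The FoxO genes were Foxo3 at 34.4 and 32.8, Foxo1 at 18.6 and 18.3 and Foxo6 at 37.5 and 28.1 CPM. Per kilobase they lay further apart. Foxo6 had 1.59 and 1.20 CPM per kb, Foxo3 0.358 and 0.341 and Foxo1 0.219 and 0.216. The AMPK subunit genes had 13.6 to 56.4 CPM: the catalytic Prkaa1 (21.6 and 19.7) and Prkaa2 (36.9 and 39.4), the scaffold Prkab1 (14.1 and 13.6) and the nucleotide-binding Prkag1 (30.9 and 28.1) and Prkag2 (53.4 and 56.4). Per kilobase the order turned in both pairs. Prkaa1 had 0.561 and 0.510 CPM per kb against 0.460 and 0.491 for Prkaa2. Prkag1 had 1.61 and 1.46 against 0.224 and 0.236 for Prkag2. Stk11, the gene of LKB1, had 64.6 and 60.3 CPM and the highest level of all members per kilobase, at 4.33 and 4.04 CPM per kb. Stk11 and Gsk3a, genes of 14.9 and 9.88 kb, therefore led the list per kilobase, while Igf1r and Gsk3b, of 282 and 157 kb, led it in CPM.

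**Figure D1:**
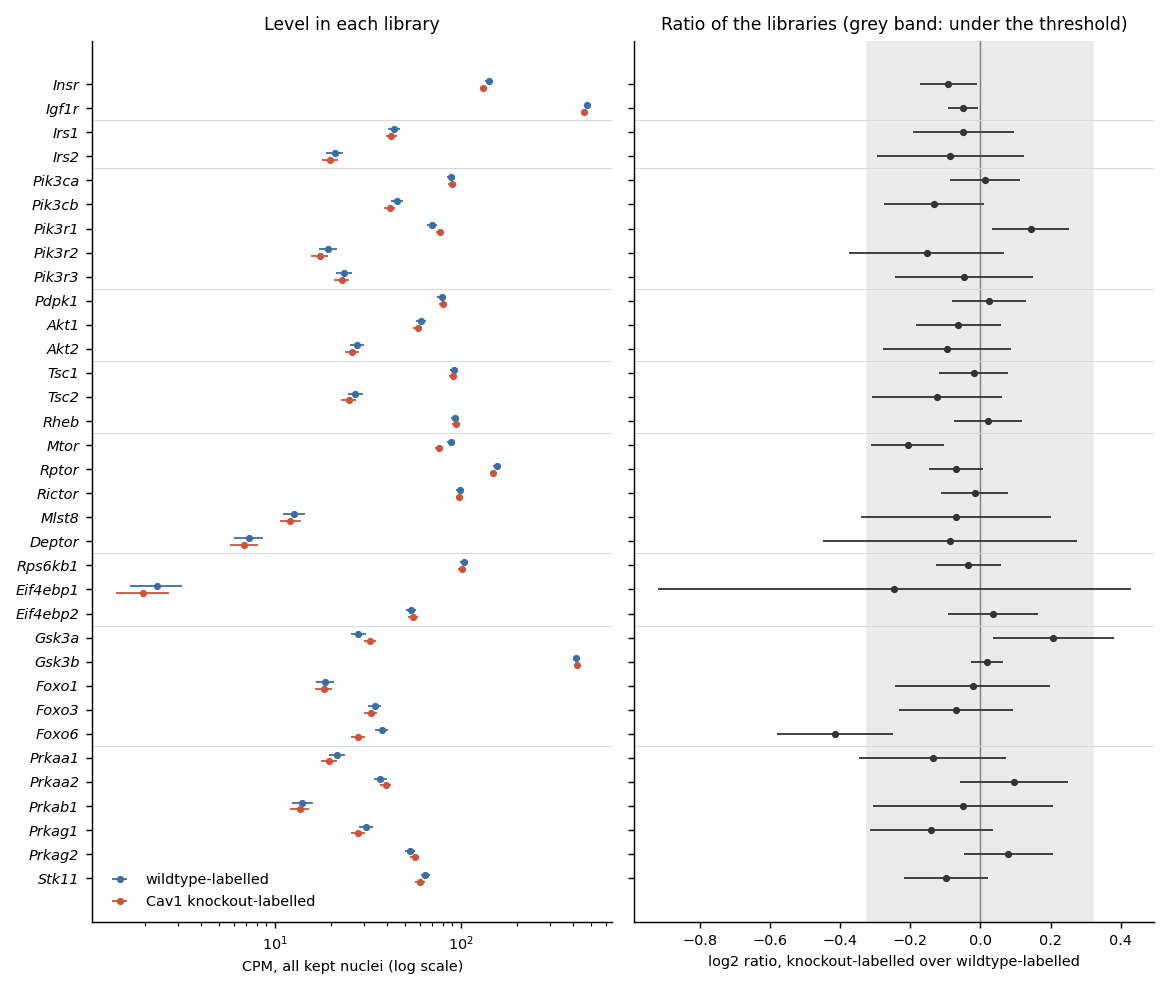
The 34 members in order of their place in the cascade, with grey lines between the groups. Left, CPM over all kept nuclei in the wildtype-labelled (blue) and knockout-labelled (red) library on a log axis; right, log2 ratio of the knockout-labelled over the wildtype-labelled library; bars are 95% counting intervals and the grey band spans log2 ratios within 0.32 of 0. Foxo6, at −0.41, is the one member whose point lies outside the band with an interval that excludes 0.

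Between the libraries the cascade as a whole differed little. Together the members took up 0.259% and 0.253% of all UMIs. A gene was called when the log2 ratio of its CPM, knockout-labelled over wildtype-labelled, was at least 0.32 from 0 and its interval excluded 0. Of the 33 members with at least 100 UMIs, 0 were called higher in the knockout-labelled library, where 6.12% of all 15528 genes were, and 1, Foxo6, was called lower, where 3.17% of all genes were. In either direction 9.29% of all genes were called. Counting intervals that excluded 0 at any size, members numbered 6 of 33, or 18.2%, against 26.4% of all genes. The median log2 ratio was −0.05 over these members and −0.01 over all genes. Ratios below 0 were found for 24 of the 33 members, or 72.7%, against 53.5% of all genes. Sums over tissue cannot tell fewer nuclei of a type from less RNA per nucleus.

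Foxo6 encodes the FoxO factor known for its expression in brain, and lies on the minus strand of chromosome 4 at 120124276 to 120147792 (GRCm39). It had 645 UMIs in the wildtype-labelled library, or 37.5 CPM (34.7 to 40.5). The other library had 559, or 28.1 CPM (25.8 to 30.6). The 2 intervals did not overlap, and the log2 ratio was −0.41 (−0.58 to −0.25). With the classes weighted to the same mix in both libraries it was −0.35 (−0.51 to −0.18). Nuclei with too few markers (24.1% and 24.6% of nuclei) and tied nuclei (15.5% and 14.8%) entered this weighting as classes of their own. The mix of cell types inside a class was not made equal. The Neurod6 gate, in which Foxo6 was highest among the main classes, held 853 wildtype-labelled and 614 knockout-labelled nuclei. At a threshold of 1.5-fold, which 2.72% of all genes passed, Foxo6 was no longer called. The FoxO paralogs gave −0.07 (−0.23 to 0.09) for Foxo3 and −0.02 (−0.24 to 0.20) for Foxo1.

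The other 5 members whose intervals excluded 0 stayed under the threshold of 0.32. Mtor gave −0.21 (−0.31 to −0.10), Insr −0.09 (−0.17 to −0.01) and Igf1r −0.05 (−0.09 to −0.01), all lower in the knockout-labelled library. Gsk3a gave 0.21 (0.04 to 0.38) and Pik3r1 0.14 (0.03 to 0.25), both higher. Of these, Mtor reached the threshold when each nucleus was thinned to 1000 UMIs, at −0.37. The remaining 27 tested members had intervals that included 0, from −0.15 for Pik3r2 to 0.10 for Prkaa2.

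Within the main classes, 9 differences of members were called among 5 gates, on a minimum of 20 UMIs over both libraries. In the Fabp7 gate, 1 of 34 members was called higher (5.31% of all genes) and 3 lower (4.58%). Pik3r1 was the higher one, with 184 wildtype-labelled UMIs at 52.1 CPM and 307 knockout-labelled UMIs at 70.6 CPM, a log2 ratio of 0.44 (0.17 to 0.71). The lower ones were Foxo6 at −0.57 (−0.95 to −0.19), Pik3cb at −0.46 (−0.76 to −0.16) and Mtor at −0.36 (−0.58 to −0.14). None of these 4 calls was made in the narrower gate without Fabp7 and Ptprz1, which held 279 and 252 nuclei: there Pik3r1 gave 0.46 (−0.23 to 1.17), Pik3cb −0.28 (−1.06 to 0.49), Mtor 0.18 (−0.34 to 0.69) and Foxo6, on 13 and 15 UMIs, 0.16 (−1.01 to 1.35). The point values kept their sign for Pik3r1 and Pik3cb and not for Mtor and Foxo6. All 4 intervals included 0, so the smaller counts of this gate do not settle the sign of any of them.

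In dividing progenitor-like nuclei, 1 of 32 members was called higher (5.13% of all genes) and 2 lower (4.88%). Pik3r1, whose product p85 alpha holds and steadies the PI3K catalytic subunit, was again the higher one, at 54.0 and 88.8 CPM and a log2 ratio of 0.72 (0.18 to 1.28) on 46 and 79 UMIs. Rictor gave −0.49 (−0.93 to −0.05) and Stk11 −0.48 (−0.92 to −0.05). Without Fabp7 and Ptprz1 as markers this class was wider, with 418 and 389 nuclei against 289 and 247. In it Pik3r1 gave 0.44 (0.02 to 0.88), Stk11 −0.41 (−0.75 to −0.07) and Rictor −0.19 (−0.51 to 0.14), so that the first 2 remained called. Pik3r1 did not have a higher ratio in all classes: other excitatory neuron-like nuclei had 73.5 and 59.4 CPM.

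In the Neurod6 gate and in forebrain inhibitory neuron-like nuclei, 0 of 33 and 0 of 32 members were called, where 3.17% and 5.07% of all genes were called higher and 2.90% and 3.83% lower. In other excitatory neuron-like nuclei, chosen by Slc17a6 and by factors of midbrain, thalamic and similar neurons, 0 of 33 were called higher (4.13%) and 2 lower (3.31%). These were Foxo1 at −0.94 (−1.69 to −0.20) on 37 and 29 UMIs and Foxo6 at −0.62 (−1.22 to −0.02) on 50 and 49 UMIs. With 3 gate markers Foxo6 gave −0.45 (−1.14 to 0.25) here, and without Fabp7 and Ptprz1 as markers Foxo1 gave −0.64 (−1.31 to 0.03).

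The Foxo6 difference was not equal among classes. It was −0.10 (−0.47 to 0.26) in the Neurod6 gate, where the gene was highest among the main classes, at 63.4 and 59.0 CPM. It was 0.04 (−0.80 to 0.90) in forebrain inhibitory neuron-like and −0.38 (−1.10 to 0.32) in dividing progenitor-like nuclei. Among the nuclei without a class, those with too few markers had 27.2 CPM (21.5 to 33.9) and 21.6 CPM (16.6 to 27.7), and the tied ones 42.5 (35.9 to 49.99) and 31.9 (26.7 to 37.8). The intervals of the former set overlapped and those of the tied nuclei overlapped too. In intermediate progenitor-like nuclei, on 6 and 16 UMIs, Foxo6 was instead called higher, at 1.66 (0.23 to 3.30). Whether these class ratios differ from one another was not tested.

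**Figure D2:**
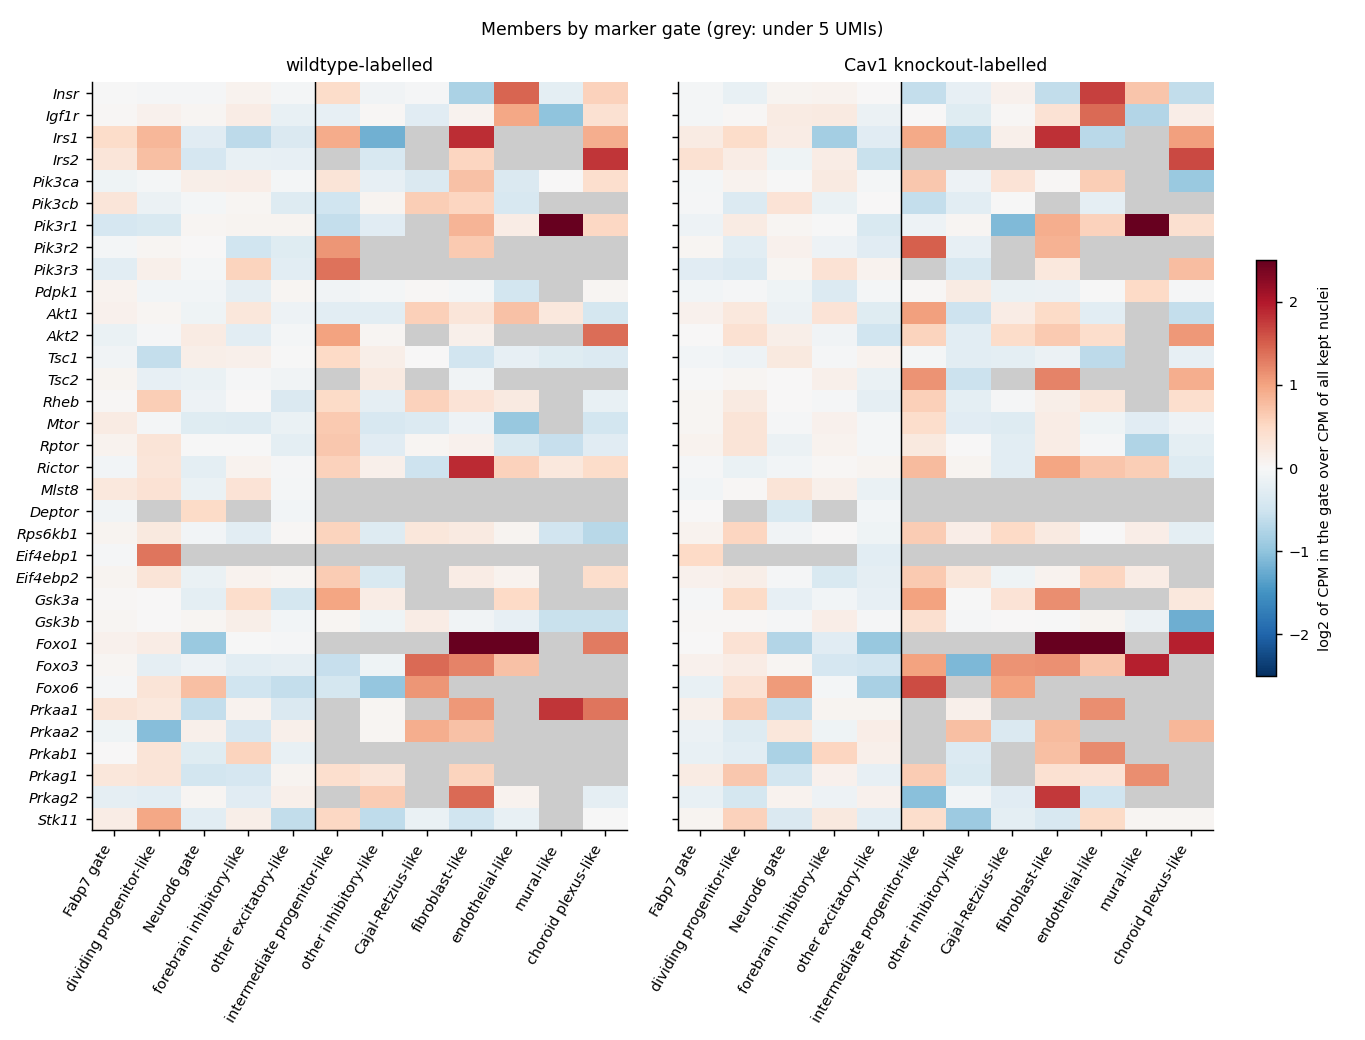
Each member's CPM in a class relative to its CPM over all kept nuclei of the same library, on a log2 colour scale, with the 5 main classes left and the 7 small classes right of the line. Cells with under 5 UMIs are grey. Most cells of the main classes are pale, and the darkest cells lie in the fibroblast-like, endothelial-like, mural-like and choroid plexus-like columns in both libraries. A darker cell of the main classes is Eif4ebp1 in wildtype-labelled dividing progenitor-like nuclei, at 5.87 CPM on 5 UMIs against 2.32 CPM over all kept nuclei.

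Across the main classes most members were even. A class pattern, with the highest main class at least 2-fold over the median of the other main classes and the same class highest in both libraries, was found for 1 of 33 members, against 11.8% of all genes. That member was Foxo6 in the Neurod6 gate, at 2.01-fold in the wildtype-labelled and 2.27-fold in the knockout-labelled library. Its level was lowest in other excitatory neuron-like nuclei, at 24.7 and 16.1 CPM. At 1.5-fold the count was 3 of 33, against 22.4% of all genes. Prkab1 then joined in forebrain inhibitory neuron-like nuclei (1.57 and 1.71-fold) and Stk11 in dividing progenitor-like nuclei (2.01 and 1.58-fold). When nuclei were thinned to 1000 UMIs, Foxo6 no longer met the 2-fold rule and Prkag1 and Stk11 did. The same class was highest in both libraries for 18 of 33 members, against 48.6% of all genes.

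Smaller differences were then read against the pooled other main classes, where both libraries' intervals had to exclude 0 on the same side. Irs1, the gene of an insulin receptor substrate, had 60.3 and 49.0 CPM in the Fabp7 gate and 77.5 and 58.5 in dividing progenitor-like nuclei, against 27.6 and 23.5 in forebrain inhibitory neuron-like nuclei. In each library the Fabp7 gate and the dividing class were thus above the forebrain inhibitory class, whose Irs1 level was 0.560 and 0.519-fold that of the other main classes. Irs2 met this rule in the Fabp7 gate alone, by 0.41 and 0.58 on the log2 scale. In the wildtype-labelled library its highest main class was however dividing progenitor-like, at 35.2 CPM.

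In dividing progenitor-like nuclei 3 of 33 members were above the rest (9.13% of all genes) and 0 below (6.25%). These were Irs1, Rptor (1.27 and 1.24-fold) and Stk11, at 126 CPM (103 to 152) and 90.0 CPM (71.3 to 112), or 2.07 and 1.57-fold. The Fabp7 gate had 2 members above (10.4%) and 0 below (6.61%). In the Neurod6 gate Tsc1 (1.18 and 1.20-fold) and Foxo6 were above, 2 of 33 against 6.05%, and Prkaa1, Prkag1 and Stk11 were below, 3 of 33 against 13.9%. Stk11, the gene of the kinase that switches on AMPK, thus stood highest in dividing progenitor-like nuclei and lower in the Neurod6 gate and the other excitatory class, at 53.7 and 47.0 CPM in the Neurod6 gate and 41.9 and 50.5 CPM in other excitatory neuron-like nuclei.

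Igf1r was the 1 member above the rest in forebrain inhibitory neuron-like nuclei (4.04% of all genes), at 541 and 536 CPM, and Irs1 the 1 below (6.76%). Other excitatory neuron-like nuclei had 0 members above (9.80%) and 5 below (14.5%): Igf1r (0.836 and 0.862-fold), Irs1, Rheb, Foxo6 and Stk11. The members' shares in the main classes thus lay near or under those of all genes.

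Paralogs differed in how they were spread over the main classes. For 13 listed pairs the log2 ratio of one paralog's UMIs to the other's was taken in each main class, where gene length cancels between classes. In 3 pairs at least 2 main classes differed by 1 or more in the same direction in both libraries. For each pair the 2 classes contrasted below were picked from these same counts as those furthest apart. How many other pairs of genes would meet this rule was not counted. AMPK's catalytic subunit has the isoforms alpha 1 (Prkaa1) and alpha 2 (Prkaa2). The log2 ratio of Prkaa2 to Prkaa1 was 1.48 (0.90 to 2.09) and 1.88 (1.23 to 2.58) in the Neurod6 gate, on 95 and 34 wildtype-labelled and 92 and 25 knockout-labelled UMIs. In dividing progenitor-like nuclei it was −0.55 (−1.60 to 0.46) and 0.05 (−0.76 to 0.87), on 15 and 22, and 28 and 27 UMIs. The 2 classes differed by 2.03 and 1.83. Their intervals did not overlap in either library, which is no separate support because the classes were picked as the extremes. The other classes lay between them, at 0.35 and 0.74 in the Fabp7 gate, 0.26 and 0.83 in forebrain inhibitory neuron-like and 1.27 and 1.09 in other excitatory neuron-like nuclei.

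Both genes contributed to this contrast. Prkaa2 had 40.1 and 48.1 CPM in the Neurod6 gate and 17.6 and 31.5 in dividing progenitor-like nuclei, while Prkaa1 had 14.4 and 13.1 against 25.8 and 30.4. In the wildtype-labelled library the fold between classes was larger for Prkaa2, and in the knockout-labelled library for Prkaa1. The gamma subunit, which binds AMP and ATP, gave a like order. Prkag2 to Prkag1 was 1.31 (0.83 to 1.79) and 1.56 (1.02 to 2.12) in the Neurod6 gate and 0.20 (−0.51 to 0.92) and −0.11 (−0.80 to 0.57) in dividing progenitor-like nuclei, a difference of 1.10 and 1.67. Their intervals overlapped in the wildtype-labelled library. Here Prkag1 was the more variable gene, at 22.4 and 20.4 CPM in the Neurod6 gate and 38.7 and 45.0 in dividing progenitor-like nuclei, while Prkag2 had 55.3 and 60.1 against 44.6 and 41.6 CPM.

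Foxo6 to Foxo3 was 1.00 (0.59 to 1.42) and 0.80 (0.35 to 1.26) in the Neurod6 gate and −0.26 (−0.83 to 0.30) and −0.56 (−1.11 to −0.01) in other excitatory neuron-like nuclei, a difference of 1.26 and 1.35. Foxo3 varied less between these classes, at 31.7 and 34.0 against 29.6 and 23.6 CPM. Foxo1 to Foxo3 had differences of 1.23 and 0.98 between dividing progenitor-like nuclei and the Neurod6 gate. It met the rule, as a further pair, with 1000 genes per nucleus (1.15 and 1.05) and with doublets removed (2.06 and 1.14). Eif4ebp1 had too few UMIs for its pair to be compared. The other 8 pairs differed by at most 0.71 in the library with the smaller difference, which was Akt2 to Akt1. With the gate without Fabp7 and Ptprz1, Prkag2 to Prkag1 differed by only 0.78 and 0.79, while Prkaa2 to Prkaa1 differed by 1.51 and 1.43. After thinning, Prkaa1 and Prkaa2 had too few UMIs in the classes concerned for this pair to be read.

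**Figure D3:**
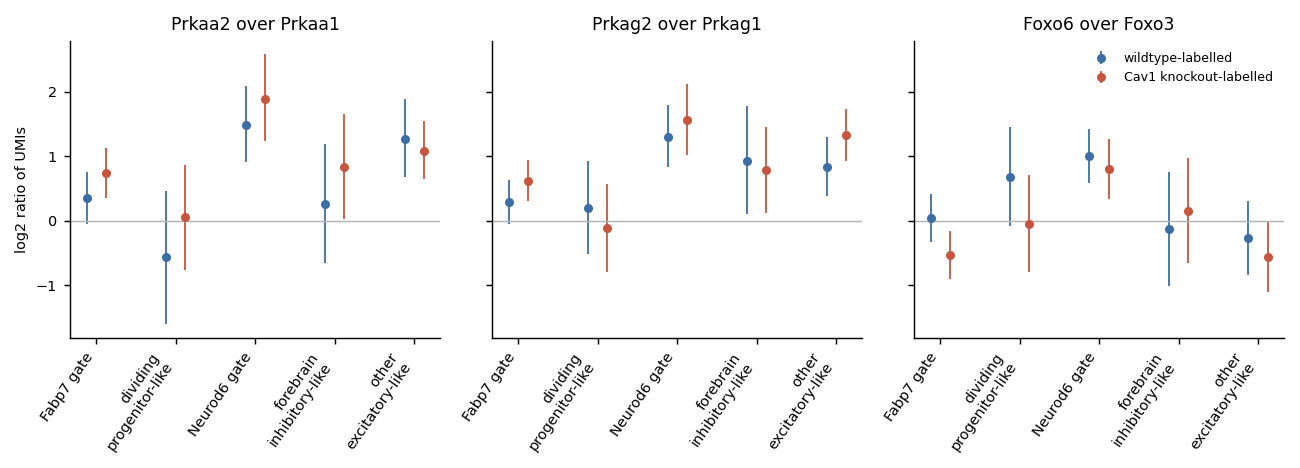
The log2 ratio of UMIs of 3 pairs of paralogs in the 5 main classes, in the wildtype-labelled (blue) and knockout-labelled (red) library, with 95% counting intervals. Each ratio is highest in the Neurod6 gate in both libraries, at 1.48 and 1.88 for Prkaa2 over Prkaa1, 1.31 and 1.56 for Prkag2 over Prkag1 and 1.00 and 0.80 for Foxo6 over Foxo3.

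Larger folds stood in some small classes, each compared with the pooled main classes of its library. In endothelial-like nuclei (42 wildtype-labelled and 60 knockout-labelled) 4 of 33 members were above in both libraries (6.63% of all genes) and 0 below (5.14%). Foxo1, a factor known for its part in blood vessel growth, had 148 CPM (96.8 to 217) and 142 CPM (96.8 to 199.8), or 8.67 and 9.55-fold. Insr had 388 CPM (301 to 491) and 433 CPM (352 to 528), or 2.78 and 3.29-fold. Igf1r had 929 CPM (792 to 1083) and 1221 CPM (1081 to 1374), or 1.93 and 2.65-fold, and Rictor was 1.54 and 1.64-fold. Both receptors were thus at their highest here among all 12 classes, in both libraries.

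Cav1 counts differed by label in endothelial-like nuclei, the only class in which they were compared. Whether the differences of members in this class are linked to Cav1 was not tested. Between the libraries, 2 of 17 members with 20 UMIs were called in endothelial-like nuclei, both higher in the knockout-labelled library. Of all genes, 9.89% were called there in either direction. Igf1r, on 163 and 276 UMIs, gave a log2 ratio of 0.39 (0.11 to 0.68). Pik3ca, the catalytic PI3K subunit gene, gave 1.00 (0.0012 to 2.10) on 12 and 31 UMIs.

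Fibroblast-like nuclei (67 and 77) had 6 of 33 members above the main classes in both libraries, where 6.05% of all genes were, and 1 below (4.80%). Foxo1 was 6.53 and 7.05-fold, at 112 CPM (70.0 to 169) and 105 CPM (66.3 to 157). Irs1 was 3.32 and 3.46-fold, at 157 (107 to 223) and 150.0 CPM (103 to 211), and Prkag2 2.82 and 3.53-fold, at 142 and 191 CPM. Rictor (3.75 and 2.01-fold), Foxo3 (2.53 and 2.34-fold) and Pik3r1 (1.99 and 2.05-fold) were the others. Foxo6 was below, with 2 and 0 UMIs. The fibroblast-like class was therefore the highest of the 12 for Irs1 and Prkag2, while the FoxO genes split, with Foxo1 and Foxo3 above the main classes and Foxo6 below. Rictor was called lower in the knockout-labelled library, 71 against 43 UMIs and −0.88 (−1.47 to −0.32), 1 of 19 members against 10.1% of all genes.

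Mural-like nuclei (25 and 38), the pericytes and smooth muscle cells around vessels, had 1 member above (3.47%) and 1 below (2.88%). Pik3r1 had 445 CPM (300.2 to 635) and 452 CPM (317 to 626), 6.98 and 6.36-fold the main classes and the highest of all classes. Igf1r was 0.493 and 0.599-fold, at 237 and 276 CPM, so that the vessel wall classes lay on opposite sides of the main classes for Igf1r. Choroid plexus-like nuclei (40 and 54) had 2 above (4.44%) and 1 below (3.20%). Irs2 was 3.31 and 3.02-fold on 8 and 8 UMIs, Deptor 5.41 and 5.41-fold on 4 and 4, and Gsk3b 0.664 and 0.423-fold on 31 and 23. Insr was called lower there in the knockout-labelled library, on 23 and 11 UMIs, at −1.29 (−2.47 to −0.19), 1 of 8 members against 11.2% of all genes.

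Intermediate progenitor-like nuclei (104 and 84) had 4 members above (3.21%) and 1 below (3.69%). Intermediate progenitors are known as dividing precursors of cortical neurons, but neither division nor cortical origin was checked for these nuclei. Irs1 (1.76 and 1.89-fold), Rictor (1.54 and 1.74-fold), Pik3r2 (2.32 and 2.93-fold on 9 and 9 UMIs) and Gsk3a (2.09 and 2.10-fold on 12 and 12) were above. Prkaa2 was below, with 2 and 2 UMIs. Here 3 of 18 members were called between the libraries, against 6.95% of all genes: Insr lower, on 42 and 16 UMIs, at −1.15 (−2.08 to −0.29), Akt1 higher, on 11 and 22, and Foxo6 higher, on 6 and 16. Cajal-Retzius-like nuclei (28 and 44) had Foxo3 above, at 2.87 and 2.30-fold (1 of 33, against 1.79%) and 0 below (1.59%), and other inhibitory neuron-like nuclei (106 and 134) had 0 members above (2.95%) or below (3.59%). In the latter 1 of 20 members was called between the libraries, Igf1r at −0.38 (−0.70 to −0.06), against 6.43% of all genes. In the Cajal-Retzius-like and mural-like classes 0 of 12 and 0 of 5 were called, against 8.57% and 9.76%. Whether the share of RNA from other nuclei in these small gates plays a part was not tested.

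**Figure D4:**
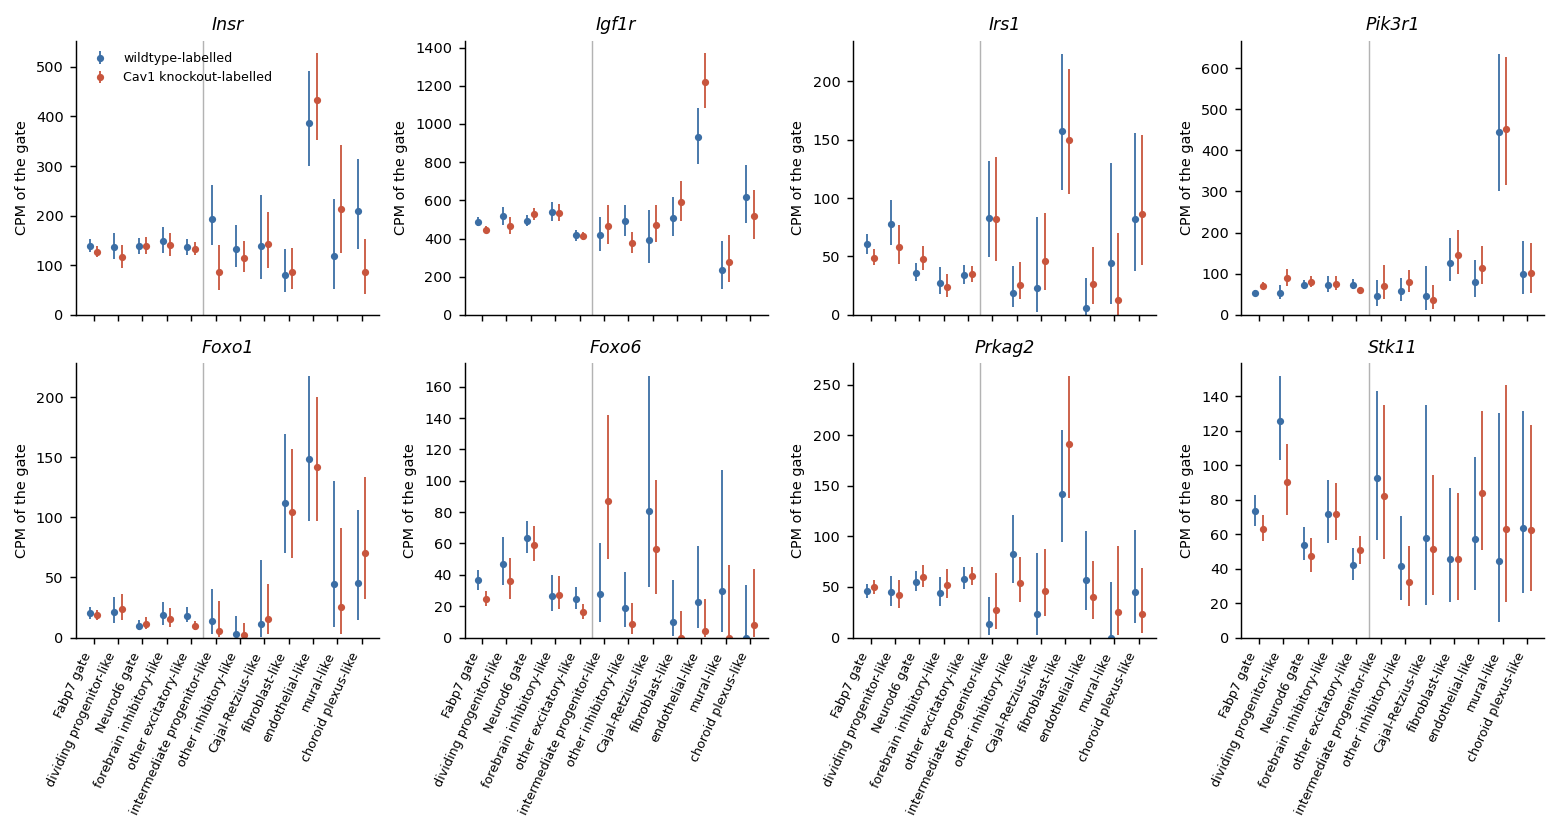
CPM of 8 members in the 12 classes of nuclei in the wildtype-labelled (blue) and knockout-labelled (red) library, with 95% counting intervals; the vertical line parts the 5 main from the 7 small classes. Insr and Igf1r peak in endothelial-like nuclei, Irs1 and Prkag2 in fibroblast-like nuclei and Pik3r1 in mural-like nuclei, and Foxo1 in endothelial-like and fibroblast-like nuclei, in both libraries.

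A further list of 87 genes of the same pathway was counted beside the members, and 74 of them had enough UMIs. Between the libraries 4 were called higher and 1 lower, against 6.12% and 3.17% of all genes, and 0 passed 1.5-fold. Named after their values were seen, the higher ones were Igfbp5, which binds insulin-like growth factors (0.33), Prr5, a subunit of mTOR complex 2 (0.57), Rragd, a GTPase that reports amino acids to mTOR (0.33), and Ppargc1a, a coactivator of mitochondrial genes (0.56). The lower one was Bcl6, a repressor (−0.34, and −0.20 with the mix of classes made equal). By role, the counts called were 1 of 7 ligands and binding proteins, 1 of 8 genes of the TSC and mTOR complexes, 1 of 17 of the amino acid input and 2 of 10 of the AMPK and FoxO outputs. In the other groups 0 were called, of 6 adaptor and PI3K, 7 phosphatase, 6 AKT-type kinase, 6 translation and 7 further AMPK and LKB1 genes.

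A class pattern was found for 8 of these 74 genes, against 11.8% of all genes. By the smaller of the 2 libraries' folds, the 3 largest were Bcl6 in the Neurod6 gate, at 93.0 and 98.2 CPM (6.88 and 5.25-fold), Tbc1d4, an AKT substrate that governs glucose transporter traffic, in the Fabp7 gate, at 97.4 and 82.8 CPM (4.55 and 3.39-fold), and Grb10, an adaptor that restrains the receptors, in dividing progenitor-like nuclei, at 286 and 319 CPM (3.70 and 3.35-fold). All 3 exceeded the largest pattern among the members, that of Foxo6. These patterns compare main classes only. Grb10 was higher still in choroid plexus-like (710 and 633 CPM), fibroblast-like (670 and 605) and mural-like nuclei (371 and 452). Its level in intermediate progenitor-like (365 and 311) and endothelial-like nuclei (331 and 292) was near that of the dividing class. It was lower in Cajal-Retzius-like and other inhibitory neuron-like nuclei. Tbc1d4 was not particular to the Fabp7 gate. It had 89.2 and 50.6 CPM in dividing progenitor-like and 92.4 and 71.0 in intermediate progenitor-like nuclei, the latter on 20 and 13 UMIs. Fibroblast-like nuclei had 55.9 and 105 CPM of it and endothelial-like nuclei 62.7 and 106 CPM.

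Neighbouring genes limit these counts. By the annotation, 28 of the 34 members overlapped a gene on the opposite strand and 16 one on the same strand, and whether the counting used strand is not given in the sources used here. Tsc1, Foxo6 and Prkaa2 overlapped none.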

How the data were processed

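The authors deposited 1 matrix of unnormalized UMI counts for each library, and per the file headers these were written by Cell Ranger 6.1.1. The submitters' processing notes name Cell Ranger 3.0.1, STAR and GRCm39. Whether introns were counted is not given in the sources used here. Gene positions and lengths came from GENCODE M39 (GRCm39), in which 34 of 34 members matched by Ensembl identifier. UMIs were summed over nuclei and divided by all UMIs of the sum (CPM). CPM have exact Poisson and ratios exact conditional binomial 95% intervals (Python 3.11.15, numpy 2.4.6, scipy 1.17.1). For the equal class mix the interval was approximated by the delta method. The ratio code was tested on simulated data. The members and lists were chosen with earlier results of these data known. Members called between the libraries, with a class pattern, or in a paralog pair differing by 1 or more were given in full. Further pathway genes were to be named past 1.5-fold, which none passed, or for the 3 largest class patterns. The 5 called between the libraries were also named, after their values were seen. Paralogs needed at least 20 UMIs each per class, summed over both libraries, a minimum added later. Scrublet (scanpy 1.11.5) marked 0 nuclei in each library, so doublets were kept, and the 8% with the highest scores (535 and 534) were removed as an alternative. Microglia, oligodendrocyte precursor and erythroid gates, under 20 nuclei, were not analysed here. Alternatives were 200 or 1000 genes per nucleus, doublets removed, another scaling, thinning to 1000 UMIs, an equal class mix, 3 gate markers and other thresholds. Those on the gate without Fabp7 and Ptprz1, on 3 gate markers within classes and on the small classes were chosen after seeing the data.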

Additional observations from a re-analysis of the deposited data

Results flagged for a closer look

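For 2 members the knockout-labelled library was higher in some classes and lower in others, with counting intervals on opposite sides of 0. The difference between the classes was not tested, and each class rests on 1 library per genotype. Foxo6 had a log2 ratio of −0.57 in the Fabp7 gate and −0.62 in other excitatory neuron-like nuclei, against 1.66 in intermediate progenitor-like nuclei, where it had only 6 wildtype-labelled and 16 knockout-labelled UMIs. Without Fabp7 and Ptprz1 as markers the first of these was 0.16 (−1.01 to 1.35), and with 3 gate markers the second was −0.45 (−1.14 to 0.25). Igf1r had −0.13 in the Fabp7 gate and −0.38 in other inhibitory neuron-like nuclei, against 0.39 in endothelial-like nuclei, the class with its highest level. Without Fabp7 and Ptprz1 as markers the first of these was 0.0052 (−0.22 to 0.23).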

How the results depend on the processing

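Of 204 ratios of single members between the libraries under the alternatives, 196 stayed within the counting interval of the reported value, 8 moved out of it, all on thinning to 1000 UMIs, and 0 called values changed sign. The number of members called between the libraries, 1 as reported, was 2 after thinning (Foxo6 and Mtor) and 0 at a threshold of 1.5-fold, and 1 under the other 6 alternatives. The number with a class pattern, 1 as reported, was 2 after thinning, 2 with the gate without Fabp7 and Ptprz1 (Foxo6 and Deptor) and 3 at 1.5-fold. The number called within the Fabp7 gate, 4 as reported, was 1 (Mlst8, on 16 and 4 UMIs) with that narrower gate. Within the Neurod6 gate it was 1 instead of 0 with 3 gate markers. The cause of these changes was not tested. The levels of 8 members in the small classes over the main classes kept their direction in all 80 alternatives, and 79 had an interval above 0. Of the 80, 73 stayed within the counting interval of the reported value and 7 moved out of it. These alternatives were chosen after seeing the data and reread much of the same counts. No paired analysis was possible because each genotype has 1 library, and for the same reason no replicate could be left out. The number of pairs of paralogs, 3 as reported, was 4 with 1000 genes per nucleus or doublets removed and 2 after thinning or without Fabp7 and Ptprz1 as markers. Counts in the small classes rest on 25 to 134 nuclei per library, and many members had under 20 UMIs there.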
